A study of Homo sapiens with 6 samples.

Results

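The 9 genes described here encode the cadherins CDH1 and CDH2, the intermediate filament protein vimentin (VIM), the matrix glycoprotein fibronectin (FN1) and the transcription factors ZEB1, ZEB2, SNAI1, SNAI2 and TWIST1. They were chosen by symbol, with earlier results of these data known, and all 9 were found among 30493 listed genes. All 9 also had enough counts to be tested, as did 17089 genes in all. Their RNA was measured in A549, a human lung adenocarcinoma cell line, in 3 libraries of cells with STAU1 knockdown and 3 control libraries. The knockdown titles carry the prefix si, and the controls are described as cells with a control plasmid. The labels give no time of harvest. They do not say that replicates were grown as separate cultures either, and the p-values below therefore cover no more than the spread among the 6 libraries, which may be technical. The product of STAU1 binds double-stranded RNA and is known to act in the decay, transport and translation of messenger RNAs.

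Epithelial-mesenchymal transition (EMT) is the process by which epithelial cells loosen their junctions and take up mesenchymal traits. E-cadherin, the product of CDH1, holds epithelial cells together and is linked to actin through catenins, while N-cadherin, the product of CDH2, is typical of mesenchymal and neural cells. The SNAI, ZEB and TWIST factors bind E-box sequences and are best known for repressing CDH1, and vimentin and fibronectin are widely read as mesenchymal products. In the textbook course of EMT, CDH1 falls while CDH2, VIM and FN1 rise, and A549 cells are known to express products of both states.

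Libraries held 30354219 to 35431441 counts in the knockdown group and 31458569 to 32832268 in the control group. STAU1 itself had 16.02, 15.7 and 14.6 CPM (counts scaled to a common library size with TMM factors) in the knockdown libraries, against 120, 125 and 117 CPM in the controls. Genes encoded in mitochondria took 15.8% to 16.1% of counts in knockdown libraries and 17.3% to 17.9% in controls, and the part of this shift in the differences below was not tested. Calls rest on edgeR's quasi-likelihood test, with adjusted p-values over all tested genes and a threshold of 0.05. By this rule 44.2% of tested genes were called, 22.2% higher and 22.0% lower in the knockdown group. The calls were thus 50.3% higher, against 69.5% with total-count scaling, 77.3% on the log2(FPKM + 1) scale and 77.2% on the log2(FPKM + 0.1) scale.

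Of these transcripts, 5 stood higher after STAU1 knockdown and 0 were called lower. Against the 22.2% of tested genes called higher, the calls were 5 of 9, namely CDH1, CDH2, VIM, FN1 and SNAI1. This comparison is a description and no test, because the genes were chosen with earlier results of these data known. Against the 22.0% called lower, the count was 0 of 9 in edgeR, also 0 at an unadjusted p under 0.05, and 0 with DESeq2 and limma-voom. The other 4, ZEB1, ZEB2, SNAI2 and TWIST1, were not called. The median log2 fold change of the 9 was 0.31, beside -0.00036 over all tested genes. For 6 of the 9 every knockdown library lay above every control library, which held for 25.8% of tested genes, and for 0 of the 9 every knockdown library lay below, which held for 25.5%.

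**Figure D1:**
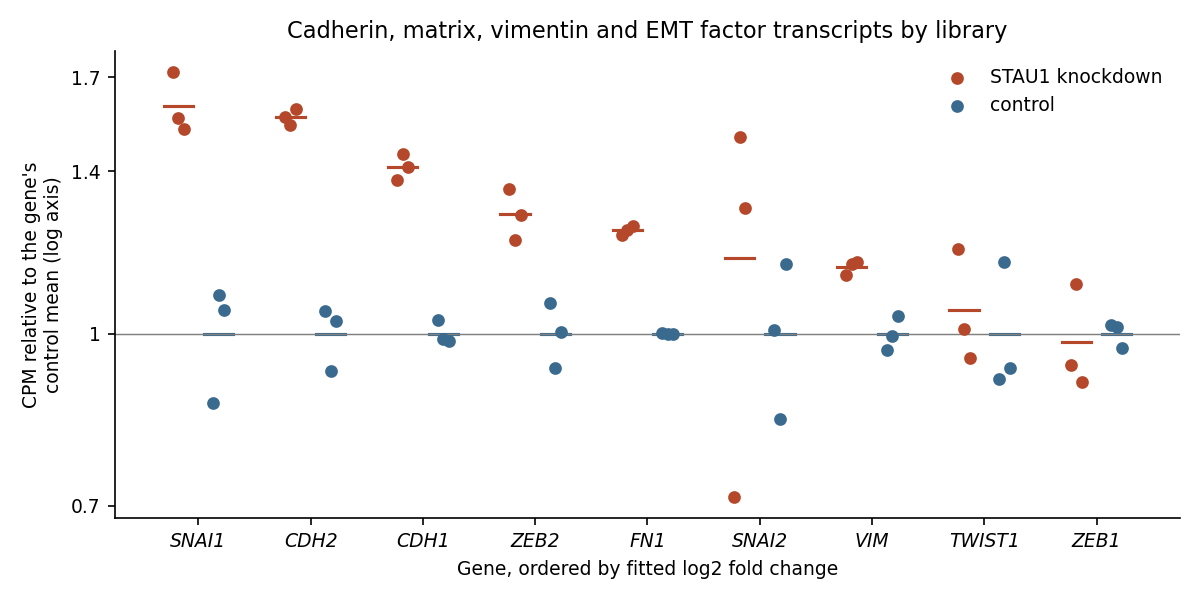
CPM of each gene in each library divided by the mean of the gene's control libraries, on a log axis, with 3 STAU1 knockdown libraries left of 3 controls and short lines at group means. The knockdown points of SNAI1, CDH2, CDH1, ZEB2, FN1 and VIM all lie above the control points, and those of SNAI2, TWIST1 and ZEB1 overlap them.

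Both cadherin transcripts were higher in the knockdown group. CDH1 (ENSG00000039068.20, chromosome 16, 68737225 to 68835548, plus strand, GRCh38 coordinates of GENCODE 29) had 118, 125 and 122 CPM in knockdown libraries, against 88.5, 85.2 and 84.8 CPM in controls. The lowest knockdown library was thus well above the highest control. Its mean was 122 ± 3.28 CPM in the knockdown group and 86.2 ± 2.06 CPM in the control group (SD, n = 3 each), a 1.41-fold rise with a 95% interval of 1.36 to 1.47. The log2 fold change was 0.50 (SE 0.03), with an adjusted p of 1.51e-19 in edgeR's quasi-likelihood test. An antisense gene, AC099314.1, overlaps exons of CDH1 and had 28 counts over the 6 libraries together.

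CDH2 (ENSG00000170558.10, chromosome 18, 27950966 to 28177446, minus strand) had 40.7, 39.97 and 41.3 CPM in knockdown libraries, against 27.2, 24.1 and 26.7 CPM in controls. All 3 knockdown libraries lay within a narrow band above the controls. The mean was 40.7 ± 0.688 CPM in the knockdown group and 25.97 ± 1.68 CPM in the control group (SD, n = 3 each), 1.57-fold higher with a 95% interval of 1.47 to 1.67. The log2 fold change was 0.65 (SE 0.05) and the adjusted p from edgeR was 2.05e-16. CDH1 and CDH2 thus moved in the same direction, and not in the opposed directions of the textbook course.

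Set side by side per length, CDH1 stayed the more abundant cadherin in every library. In FPKM, the authors' values scaled for gene length and depth, CDH1 had 16.9, 18.0 and 18.1 in knockdown libraries, against 11.9, 11.4 and 11.5 in controls. CDH2 had 4.11, 4.07 and 4.34 FPKM in knockdown libraries, against 2.59, 2.28 and 2.55 FPKM in controls. The ratio of CDH2 to CDH1 was 0.243, 0.226 and 0.240 in knockdown libraries and 0.218, 0.200 and 0.223 in controls. Every knockdown ratio was above every control ratio, but the closest pair differed by little beside the spread within a group. The mean ratio was 0.237 ± 0.00915 in the knockdown group and 0.214 ± 0.0118 in the control group (SD, n = 3 each). With CPM per kilobase of annotated exon in place of FPKM, an alternative chosen after the data were seen, the mean ratio was 0.417 ± 0.0160 in the knockdown group and 0.376 ± 0.0210 in the control group, so its size depends on the gene lengths used. This ratio is given as a description, with no test.

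VIM and FN1, the most abundant of the 9 transcripts, rose by smaller factors than the cadherins. VIM (ENSG00000026025.16, chromosome 10, 17228259 to 17237593, plus strand) had 641, 656 and 659 CPM in knockdown libraries, against 548.8, 566 and 589 CPM in controls. The groups did not overlap, and the rise was the smallest of the 5 called. The means were 652 ± 9.37 CPM in the knockdown group and 568 ± 20.4 CPM in the control group (SD, n = 3 each), a fold of 1.15 with a 95% interval of 1.11 to 1.18 (log2 fold change 0.20, SE 0.02) and an adjusted p of 2.6e-10 in edgeR's quasi-likelihood test. On the FPKM scales the log2 difference of VIM was 0.31 with either pseudocount, over 1.5 times the value fitted to counts. The shift was not particular to VIM. The median of all genes was 0.05 on the log2(FPKM + 1) scale and 0.10 on the log2(FPKM + 0.1) scale.

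Reads of VIM may not be fully separated from those of other genes, because no source used here gives the strand setting of the counting. The antisense genes VIM-AS1 and AL133415.1 overlap its exons and had 1419 and 2693 counts over the 6 libraries, whereas VIM had 17026 to 23801 counts in each single library. A processed pseudogene, VIM2P, is also annotated.

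FN1 (ENSG00000115414.21, chromosome 2, 215360440 to 215436172, minus strand) had 1057, 1069 and 1079 CPM in knockdown libraries, against 864, 862 and 863 CPM in controls. The control libraries were almost identical and lay far below the knockdown libraries. The means were 1068 ± 10.8 CPM in the knockdown group and 863 ± 0.934 CPM in the control group (SD, n = 3 each). The fold was 1.24, with a 95% interval of 1.205 to 1.27, a log2 fold change of 0.31 (SE 0.02) and an adjusted p of 4.89e-18 in edgeR's quasi-likelihood test.

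The stretches of sequence before the starts of VIM and FN1, which rose together, are shown for the motifs they hold, from the RefSeq promoter table (GRCh38.p14). Windows of 250 bases before each listed start were searched on both strands for the E2-box CACCTG that SNAI and ZEB proteins are known to bind, the cyclic AMP response element TGACGTCA, the CCAAT box CCAAT and the GC box GGGCGG, and matches of the last may overlap each other. By symbol, 5 of the 9 genes matched the table, CDH2, VIM, FN1, ZEB1 and ZEB2, with 12 windows, and the others were not used here. Capitals mark the matches, and annotated exons were left out of the 2 long stretches, which lie at chr10:17227991-17228240 (plus strand) for VIM and chr2:215436176-215436318 (minus strand) for FN1.
VIM: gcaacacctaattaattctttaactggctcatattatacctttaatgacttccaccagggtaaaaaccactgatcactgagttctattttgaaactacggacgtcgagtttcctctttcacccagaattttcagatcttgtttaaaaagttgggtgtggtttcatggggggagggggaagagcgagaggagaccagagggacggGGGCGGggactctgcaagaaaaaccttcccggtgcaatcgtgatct
FN1: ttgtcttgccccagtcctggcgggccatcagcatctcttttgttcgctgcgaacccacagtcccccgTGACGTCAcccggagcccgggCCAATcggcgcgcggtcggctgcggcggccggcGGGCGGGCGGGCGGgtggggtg

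Before FN1 stood 1 cyclic AMP response element, 183 bases before the listed start, 1 CCAAT box and 6 GC boxes, of which the stretch shown holds 3. Among 35116 windows of this length, 1.65% held the cyclic AMP response element, 32% a CCAAT box and 42.6% a GC box. The VIM window held 1 GC box and none of the other 3 motifs. Of the 2 CDH2 windows, both held a CCAAT box. The match 76 bases before the first listed start lies within an annotated exon at chr18:28177189-28177218 (minus strand) and is shown with 30 bases.
CDH2: agctcgctctccATTGGcggggagcggaga

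No window of CDH2, VIM, FN1 or ZEB2 held the E2-box, which 17.5% of all windows held. ZEB1 held it in 2 of its 7 windows, with 3 matches, shown with 30 bases each at chr10:31318348-31318377, chr10:31318966-31318995 and chr10:31319119-31319148 (plus strand). The last 2 of these lie within annotated exons. A match describes letters in a window and is not a measured binding site.
ZEB1 site A: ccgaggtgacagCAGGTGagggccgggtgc
ZEB1 site B: ccccaccaCACCTGaggaaaacttttccct
ZEB1 site C: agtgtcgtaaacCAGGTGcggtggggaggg

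Of the 5 transcription factors only SNAI1, which encodes the zinc finger repressor SNAIL, was called. SNAI1 (ENSG00000124216.4, chromosome 20, 49982999 to 49988886, plus strand) had 5.76, 5.23 and 5.12 CPM in knockdown libraries, against 2.90, 3.63 and 3.52 CPM in controls. The groups did not overlap, although the counts behind these values were low, at 180, 167 and 185 in knockdown libraries and 90, 111 and 112 in controls. The mean was 5.37 ± 0.340 CPM in the knockdown group and 3.35 ± 0.391 CPM in the control group (SD, n = 3 each). SNAI1 thus had the highest fitted fold of the 9, 1.60, but its 95% interval of 1.35 to 1.89 covered the fold of CDH2 and of CDH1. The log2 fold change was 0.68 (SE 0.12), with an adjusted p of 5.93e-06 in edgeR's quasi-likelihood test. A processed pseudogene, SNAI1P1, is annotated and may share reads.

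ZEB2, a zinc finger homeobox repressor, lay above the controls in every knockdown library without passing the test. ZEB2 (ENSG00000169554.22, chromosome 2, 144364364 to 144524583, minus strand) had 2.37, 2.13 and 2.24 CPM in knockdown libraries and 1.87, 1.63 and 1.76 CPM in controls, from counts of 74, 68 and 81 in knockdown libraries and 58, 50 and 56 in controls. The fitted fold was 1.28 with a 95% interval of 1.01 to 1.63, and the adjusted p was 0.091 in edgeR's quasi-likelihood test, against an unadjusted p of 0.0446. With total-count scaling it passed, at a log2 fold change of 0.43 and an adjusted p of 0.0357 in the same test, within a range of 0.0357 to 0.321 over 16 alternatives. Its log2 difference was 0.027 on the log2(FPKM + 1) scale and 0.17 on the log2(FPKM + 0.1) scale.

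ZEB1, the paralog of ZEB2, SNAI2, which encodes SLUG, and TWIST1, a basic helix-loop-helix factor, were not called, and their groups overlapped. ZEB1 (ENSG00000148516.23, chromosome 10, 31318495 to 31529814, plus strand) had 8.35, 9.87 and 8.05 CPM in knockdown libraries and 9.06, 9.02 and 8.63 CPM in controls. Knockdown replicate 2 was the highest of the 6 and knockdown replicate 3 the lowest. The fold was 0.982 with a 95% interval of 0.872 to 1.11 (log2 fold change -0.03, SE 0.08), and the sign of this small difference turned under 5 of 16 alternatives. The antisense gene ZEB1-AS1 overlaps its exons, with 539 counts over the 6 libraries. A pseudogene named for ZEB2, ZEB2P1, is annotated and may share reads with ZEB2.

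TWIST1 (ENSG00000122691.13, chromosome 7, 19020991 to 19117672, minus strand) had 3.29, 2.79 and 2.63 CPM in knockdown libraries and 2.51, 3.20 and 2.57 CPM in controls, and both groups spanned nearly the same range. Its fold was 1.05 with a 95% interval of 0.850 to 1.29. SNAI2 (ENSG00000019549.13, chromosome 8, 48917604 to 48921740, minus strand) had 0.640, 1.35 and 1.16 CPM in knockdown libraries and 0.902, 0.752 and 1.04 CPM in controls. Knockdown replicate 1 held the lowest value of all and knockdown replicate 2 the highest. With 20 to 43 counts in knockdown libraries and 23 to 33 in controls, the interval of its fold, 0.814 to 1.69, ran from a fall to a rise above the fold of SNAI1. Its log2 fold change of 0.23 was 0.48 without knockdown replicate 1 and 0.024 without knockdown replicate 2.

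**Figure D2:**
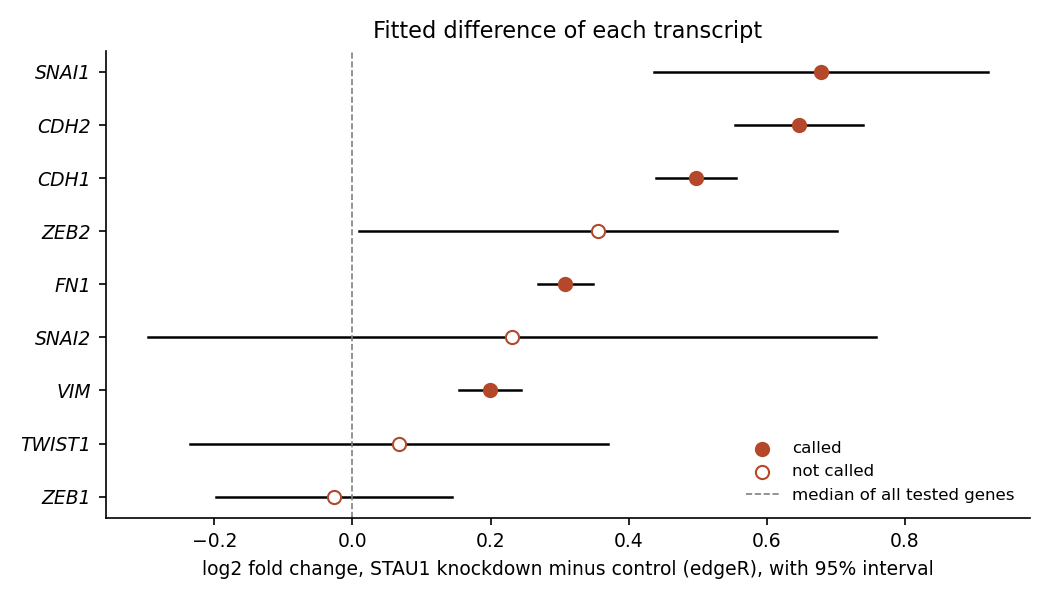
Fitted log2 fold change of each gene, STAU1 knockdown minus control, with its 95% interval as a horizontal line, filled points for called genes and a dashed line at the median of all tested genes. The intervals of SNAI1, CDH2, CDH1, FN1 and VIM, and that of ZEB2, which was not called, lie right of the dashed line, and the interval of SNAI2 is the widest.

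The order of the 9 transcripts by level was the same in both groups. In FPKM, VIM stood first with a mean of 111 in the knockdown group and 89.6 in the control group, followed by FN1 with 54.7 in the knockdown group and 40.9 in the control group. CDH1 had a mean of 17.6 FPKM in the knockdown group and 11.6 FPKM in the control group, and CDH2 had 4.17 FPKM in the knockdown group and 2.47 FPKM in the control group. The transcription factors came after them. SNAI1 had 2.77 ± 0.137 FPKM in the knockdown group and 1.60 ± 0.186 FPKM in the control group (SD, n = 3 each).

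TWIST1 had 1.28 ± 0.131 FPKM in the knockdown group and 1.13 ± 0.148 FPKM in the control group, and ZEB1 had 0.893 ± 0.0924 FPKM in the knockdown group and 0.840 ± 0.0173 FPKM in the control group (SD, n = 3 each). SNAI2 had 0.283 ± 0.1002 FPKM in the knockdown group and 0.223 ± 0.0351 FPKM in the control group. ZEB2 was last with 0.0767 ± 0.00577 FPKM in the knockdown group and 0.0567 ± 0.00577 FPKM in the control group, values that the 2 decimals of the deposited table resolve poorly. No neighbours in this order had overlapping ranges within a group. The closest pair was TWIST1 and ZEB1, a ratio of 1.43 in the knockdown group and 1.35 in the control group.

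**Figure D3:**
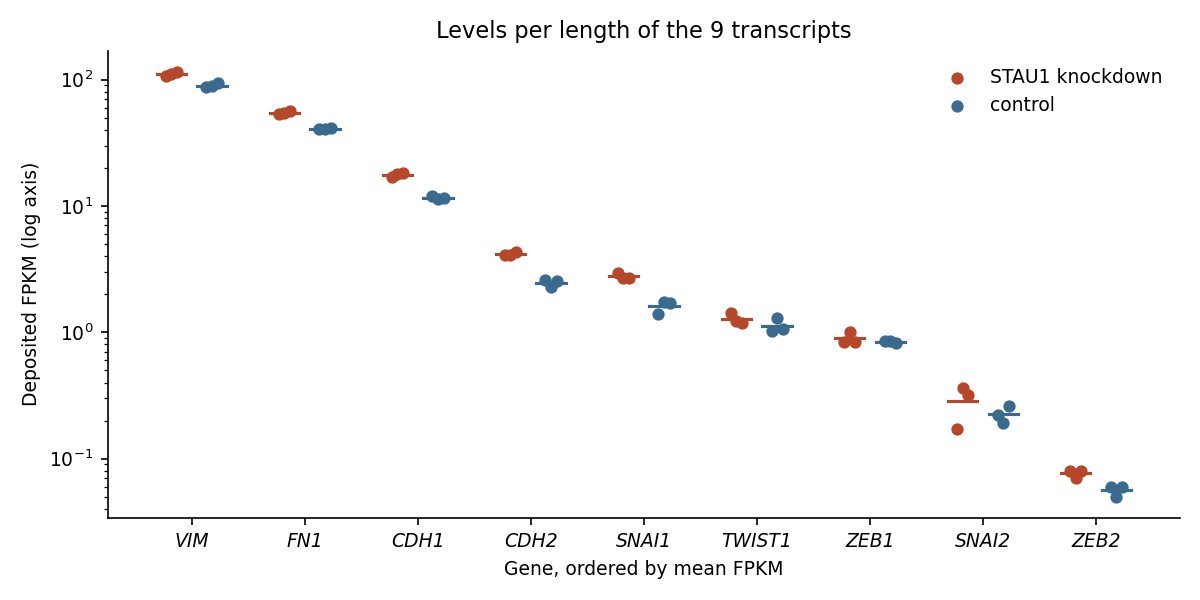
Deposited FPKM of each gene in each library on a log axis, STAU1 knockdown left of control, with short lines at group means. VIM, near 111 FPKM in knockdown libraries and 89.6 in controls, is highest and ZEB2, under 0.1 FPKM in all 6 libraries, is lowest in both groups.

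Companion lists of cadherin, EMT and matrix genes placed these transcripts among their partners, and each list is described by its counts and its median. The lists, too, were chosen with earlier results of these data known. Their counts stand beside the 22.2% of all tested genes called higher and the 22.0% called lower. Of 19 other cadherin genes listed, 11 could be tested, of which 4 were higher and 7 not called (median log2 fold change 0.24). That median was 0.456 without control replicate 1, 0.092 without control replicate 2 and 0.060 on the log2(FPKM + 1) scale. The intestinal-type cadherin gene CDH17 rose to 60.6 CPM in the knockdown group, against 38.3 CPM in the control group (0.66, SE 0.04). The other calls, named here after their values were seen, were CDH6 at 0.90, and CDH5 and CDH11 at 1.03 each, the last 2 from under 2 CPM in every library. P-cadherin, encoded by CDH3, had 1.27 CPM in the knockdown group and 1.10 CPM in the control group and was not called.

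Genes listed as catenins, which tie cadherin tails to actin, and as adaptors were called higher more often than lower. Of 12 tested, 7 were higher and 2 lower, beside 22.2% and 22.0% of all tested genes. The other 3 were not called, and the median was 0.13. These counts include CTNNBL1, called lower, and CTNNBIP1, called higher at 0.28, whose products are not junction adaptors. The alpha-catenin gene CTNNA1 had 290 CPM in the knockdown group and 242 CPM in the control group (log2 fold change 0.26, SE 0.02). AFDN, which encodes the junction protein afadin, had 39.5 CPM in the knockdown group and 30.8 CPM in the control group (0.36, SE 0.04). The beta-catenin gene CTNNB1 rose by 0.15, while the p120-catenin gene CTNND1 had a log2 fold change of 0.02. The 2 lower calls, CTNNBL1 and the vinculin gene VCL, both at -0.12, were lost on both FPKM scales and with total-count scaling, where the median was 0.208 to 0.239.

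Epithelial junction and polarity genes that SNAI, ZEB or TWIST proteins are reported to repress were called higher more often than lower. Of 19 tested, 10 were higher and 2 lower, beside 22.2% and 22.0% of all tested genes. A further 7 were not called, and the median was 0.17, or 0.27 on the log2(FPKM + 0.1) scale. The higher calls numbered 13 with total-count scaling and on both FPKM scales. They numbered 7 with DESeq2 and 8 without knockdown replicate 1 or control replicate 2. The desmosomal cadherin gene DSG2 had 118 CPM in the knockdown group and 100.2 CPM in the control group (log2 fold change 0.24, SE 0.03), and CXADR, an adhesion protein gene of tight junctions, had 39.0 CPM in the knockdown group and 29.6 CPM in the control group (0.40, SE 0.05). The 2 lower calls were the claudin genes CLDN4 at -0.86 and CLDN3 at -0.64, each under 6 CPM on average in both groups.

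Regulators of the epithelial state gave 8 of 12 tested genes higher and 1 lower, beside 22.2% and 22.0% of all tested genes. The remaining 3 were not called, and the median of the list was 0.26. TP63, a p53-family factor of basal epithelium, rose 2.34-fold to 13.3 CPM in the knockdown group, against 5.70 CPM in the control group (1.23, SE 0.08), and the ETS factor gene EHF had 73.9 CPM in the knockdown group and 61.4 CPM in the control group (0.27, SE 0.03). The only lower call was GRHL3, at -0.42, which was lost with DESeq2, on both FPKM scales and without control replicate 3. The higher calls numbered 6 with DESeq2 and without knockdown replicate 3, control replicate 1 or control replicate 3, and the median was 0.170 without knockdown replicate 3. GRHL2, a grainyhead factor known to uphold CDH1 expression, had too few counts to test.

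Of 12 other factors reported to promote EMT, 4 were higher, 2 lower and 6 not called (median 0.08), beside the 22.2% and 22.0% of all tested genes. On both FPKM scales 7 were higher and 1 lower, with total-count scaling 6 were higher and 2 lower, and 1 was lower with DESeq2 and without knockdown replicate 1 or control replicate 3. The median lay between 0.051, without knockdown replicate 3, and 0.168, on the log2(FPKM + 0.1) scale. SOX4 rose to 108 CPM in the knockdown group, against 71.6 CPM in the control group (0.60, SE 0.03). TCF3, which encodes the E-box factors E12 and E47, had 40.6 CPM in the knockdown group and 28.5 CPM in the control group (0.51, SE 0.04). HMGA2, a chromatin protein gene, fell by 0.52 on the log2 scale, and the SNAI paralog SNAI3 had too few counts to test.

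**Figure D4:**
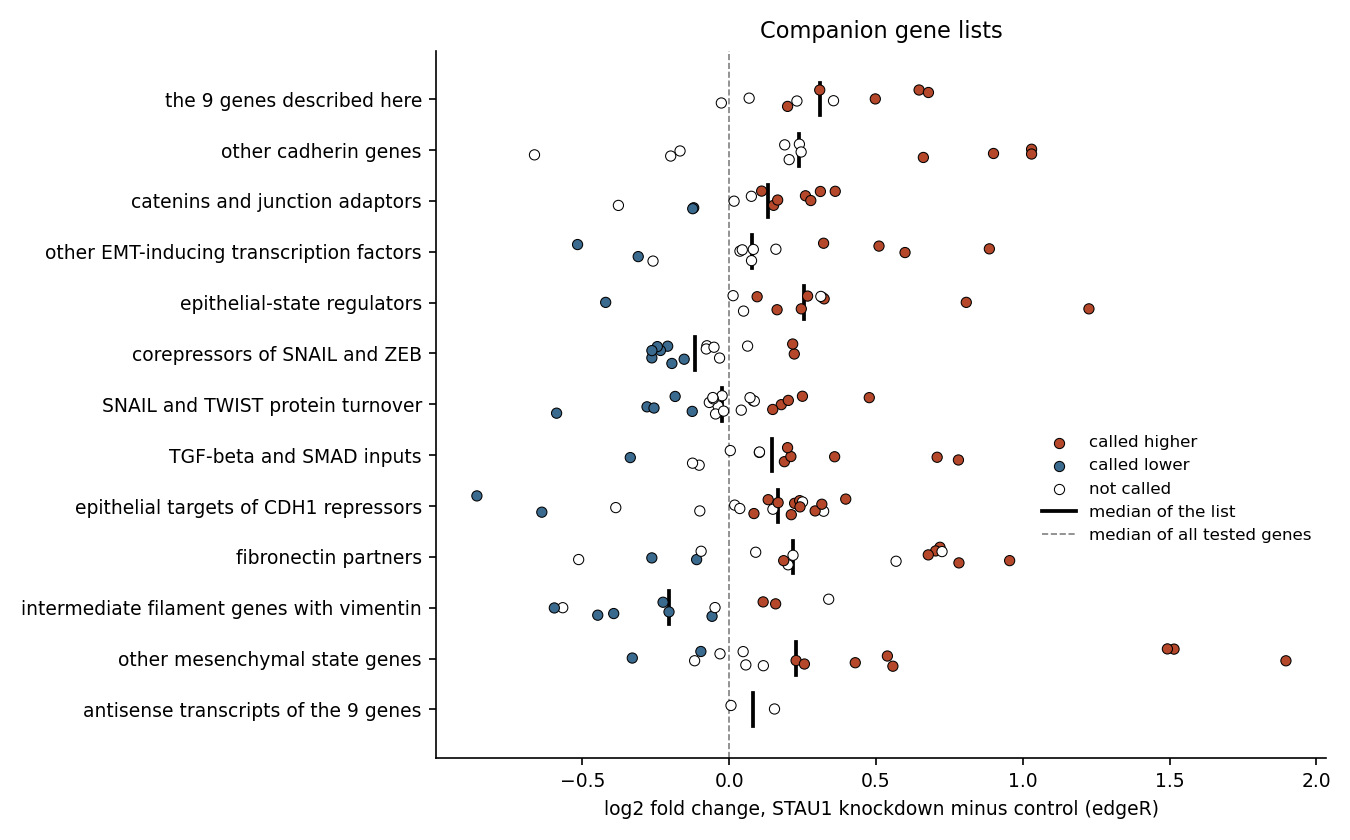
Log2 fold change of every tested gene of each list, STAU1 knockdown minus control, coloured by call, with a short bar at the list's median and a dashed line at the median of all tested genes. Left of the dashed line lie the medians of intermediate filament genes (-0.20), SNAIL and ZEB corepressors (-0.12) and SNAIL and TWIST turnover genes (-0.02). Medians of the cadherin, epithelial and mesenchymal lists lie right of it.

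Chromatin factors listed as corepressors that work with SNAI and ZEB proteins were lower more often than higher on the count scale. Of 14 tested, 7 were lower and 2 higher, beside 22.0% and 22.2% of all tested genes. The other 5 were not called, and the median was -0.12. On both FPKM scales, however, 3 were lower and 3 higher, with medians of -0.0097 and -0.0053. With total-count scaling 6 were lower and 3 higher, with a median of -0.039, and 1 was higher with DESeq2 and without control replicate 2. PRMT5, an arginine methyltransferase gene, had 81.2 CPM in the knockdown group and 97.4 CPM in the control group (log2 fold change -0.26, SE 0.03), while the deacetylase gene HDAC1 had 109 CPM in the knockdown group and 93.3 CPM in the control group (0.22, SE 0.03). The other higher call, KAT2B at 0.22, encodes a histone acetyltransferase, which is better known as a coactivator. Among 21 genes whose products set SNAIL or TWIST protein stability 5 were higher and 5 lower, beside 22.2% and 22.0% of all tested genes. Both counts lay near these shares, and 11 were not called. The median of the list, -0.02, turned to 0.05 with total-count scaling and to 0.0069 without knockdown replicate 1. On the FPKM scales it was 0.065 and 0.084, and 3 were lower on both. LOXL2, a lysyl oxidase reported to stabilise SNAIL, had 99.5 CPM in the knockdown group and 150 CPM in the control group (-0.59, SE 0.03), and the ubiquitin ligase gene MDM2 had 101 CPM in the knockdown group and 72.5 CPM in the control group (0.48, SE 0.03).

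The TGF-beta pathway, a classical inducer of SNAI1, had 7 of 12 genes higher and 1 lower, beside 22.2% and 22.0% of tested genes. Not called were 4, and the median was 0.15, against 0.223 with total-count scaling and 0.252 on the log2(FPKM + 0.1) scale. The ligand gene TGFB2 had 52.9 CPM in the knockdown group and 32.4 CPM in the control group (log2 fold change 0.71, SE 0.04), and the receptor gene TGFBR2 had 209 CPM in the knockdown group and 163 CPM in the control group (0.36, SE 0.02). The higher calls also include SKI at 0.21 and SKIL at 0.20, which encode repressors of SMAD signalling, so the count does not measure the pathway's activity. The only lower call was SMAD3, a signal transducer of the pathway, at -0.34.

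Of 15 tested partners of fibronectin, 6 were higher and 2 lower, beside 22.2% and 22.0% of all tested genes. The other 7 were not called, and the median was 0.22. The syndecan gene SDC4, a fibronectin co-receptor, had 53.2 CPM in the knockdown group and 30.9 CPM in the control group (log2 fold change 0.78, SE 0.04), and COL5A1, a fibrillar collagen gene, had 49.3 CPM in the knockdown group and 30.8 CPM in the control group (0.68, SE 0.04). The 2 lower calls were the fibronectin-binding integrin genes ITGB1 at -0.26 and ITGAV at -0.11, and the ITGA5 gene, which encodes the alpha subunit of the main fibronectin receptor, was not called at 0.09. With total-count scaling and on both FPKM scales 1 of these partners was lower, and 3 were lower without knockdown replicate 1. The median was 0.336 without knockdown replicate 2, 0.333, 0.385 and 0.341 without control replicate 1, 2 and 3, and 0.098 on the log2(FPKM + 1) scale.

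KRT7, KRT8 and KRT18, keratins of simple epithelium, fell while vimentin rose. Of 11 tested intermediate filament genes 6 were lower and 2 higher, beside 22.0% and 22.2% of all tested genes. A further 3 were not called, and the median was -0.20. On both FPKM scales, however, 3 were lower, KRT7 and KRT18 among them, with medians of -0.027 and -0.095. The median was -0.128 with total-count scaling and -0.127 when genes had to reach 1 CPM in 3 libraries. KRT7 had 1027 CPM in the knockdown group and 1552 CPM in the control group (log2 fold change -0.60, SE 0.02), and KRT18 had 3028 CPM in the knockdown group and 4128 CPM in the control group (-0.45, SE 0.02). KRT8, the partner of KRT18, changed by -0.39, and KRT19 was not called at -0.05. The keratin genes KRT8 and KRT18 are known to have processed pseudogenes that may share reads.

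Of 15 other genes read as mesenchymal 8 were higher and 2 lower, beside 22.2% and 22.0% of all tested genes. The remaining 5 were not called, and the median was 0.23. The smooth muscle actin gene ACTA2 had 16.02 CPM in the knockdown group and 5.61 CPM in the control group, though its reads may be shared with other actin genes, and the collagen gene COL1A1 had 11.98 CPM in the knockdown group and 4.26 CPM in the control group. The 2 lower calls were S100A4, a calcium-binding protein gene, at -0.33 and the receptor kinase gene AXL at -0.10, but 1 was lower with total-count scaling, on both FPKM scales and without knockdown replicate 1. The 2 antisense transcripts of these genes found by name in the table were not called, with VIM-AS1 at 7.78 CPM in the knockdown group and 6.96 CPM in the control group and ZEB1-AS1 at 2.81 CPM in the knockdown group and 2.79 CPM in the control group. With total-count scaling, on both FPKM scales and without knockdown replicate 3, 1 of them was called higher.

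**Figure D5:**
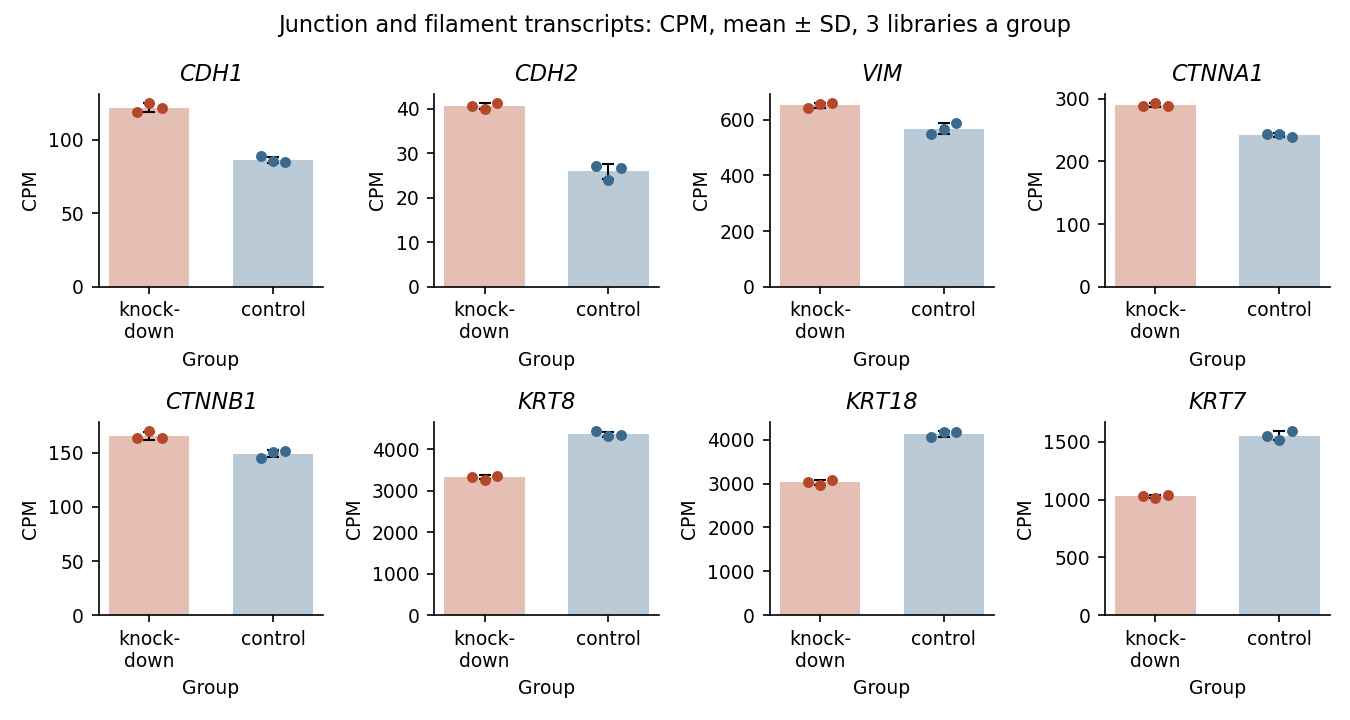
CPM of 8 junction and filament genes, with bars at group means, error bars of 1 SD, points for the 3 libraries of each group, and axes that start at 0. CDH1, CDH2, VIM, CTNNA1 and CTNNB1 are higher in the STAU1 knockdown libraries, and KRT8, KRT18 and KRT7 are lower.

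Markers of other cell types were examined because VIM, FN1 and CDH2 are also products of stromal cells. In bulk RNA, fewer cells of a type and less RNA per cell cannot be told apart. Of 6 stromal markers 5 were in the table and 3 could be tested, LUM, THY1 and PDGFRA. All 3 were called higher, as were 22.2% of all tested genes. The log2 fold changes of the 3 were 0.71, 0.50 and 1.07 with edgeR adjusted p-values of 3.04e-09, 0.000583 and 0.0461. PDGFRA had only 12, 14 and 19 counts in knockdown libraries and 4, 3 and 13 in controls, and its groups overlapped. The list's summed level was 14.7 to 16.9 CPM in knockdown libraries and 10.02 to 10.4 CPM in controls. Most of that sum was the proteoglycan gene LUM, and DCN and PDGFRB, which were not tested, had 1 to 7 counts in knockdown libraries and 3 to 9 in controls. Of 5 endothelial markers 2 could be tested, of which CDH5 was higher and PECAM1 was not called. Their summed level was 1.77 to 2.62 CPM in knockdown libraries and 1.10 to 1.34 CPM in controls, and VWF, KDR and TEK had at most 4 counts in any library.

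Among 5 immune markers 3 were in the table, with a sum of 15.4 to 17.8 CPM in knockdown libraries and 12.8 to 13.7 CPM in controls, nearly all from CD14, which was higher, and CSF1R had at most 1 count. Of 8 markers of A549 and simple epithelium 3 were higher, 4 lower and 1 not called, beside 22.2% and 22.0% of all tested genes. The higher calls were EPCAM, CDH1, which is itself one of the 9 genes, and ALDH1A1, at 0.05 with overlapping groups. The summed level of the 8 was 18954 to 19218 CPM in knockdown libraries and 21620 to 21951 CPM in controls. Among 5 alveolar type II markers, with sums of 20.4 to 22.4 CPM in knockdown libraries and 24.5 to 28.98 CPM in controls, 2 were lower, 2 not called and 1 not tested. The surfactant genes SFTPA1 and SFTPB had 0 counts in each knockdown library, whereas controls had 162, 141 and 212 counts of SFTPA1 and 103, 56 and 50 of SFTPB. The part of these marker differences in the results above was not tested.

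Genes with the most similar profile were found by the root mean square difference between log2 CPM values over the 6 libraries, each gene centred on its own mean, among 10122 genes at or above a mean log2 CPM of 3. Nearest to CDH1 were JMY (0.0154) and F2R (0.0160), and nearest to CDH2 were DENND2B (0.0322) and RHOBTB1 (0.0324). UIMC1 (0.0119) and LONP2 (0.0137) were nearest to VIM, and TM9SF4 (0.0107) and CERS2 (0.0118) to FN1. These are distances on the log2 scale and follow mainly the size of the difference between the groups. The F2R gene, for example, had 30.3 CPM in the knockdown group and 21.5 CPM in the control group (log2 fold change 0.50, SE 0.05), and CERS2 had 306 CPM in the knockdown group and 248 CPM in the control group (0.30, SE 0.02).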

How the data were processed

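RNA-seq of A549 cells covered 3 libraries with STAU1 knockdown and 3 controls. Directional libraries were made from bead-captured mRNA and sequenced as paired-end reads, per the labels' protocols. The authors deposited whole-number read counts per gene and FPKM values rounded to 2 decimals. HISAT2, DESeq2 and the GRCh38 build are named, with no roles, in the submitters' processing notes. The counting tool, annotation and strand setting are given in no source used here. Coordinates are those of GENCODE 29 on GRCh38, matched by gene.

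Columns were matched to samples by title. Genes were kept by edgeR's filterByExpr (minimum count 10), scaled by TMM and compared by edgeR's quasi-likelihood test (robust), with p-values adjusted by Benjamini-Hochberg across the 17089 genes kept (edgeR 4.0.16, limma 3.58.1, DESeq2 1.42.0, R 4.3.3). Errors of log2 fold changes are the fold change over the square root of F, and intervals are at 95%. The script was tested on simulated counts. The genes and lists were chosen with earlier results of these data known. Named from each list were the 2 called genes with the smallest adjusted p at a mean log2 CPM of at least 3 (0 for antisense transcripts). Further genes were named after their values were seen. Replicate pairs differed by more than sampling noise (chi-square divided by its degrees of freedom, 1.78 to 2.88). Alternatives were other scalings, filters, tests, FPKM scales, a replicate block and each library left out.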

Additional observations from a re-analysis of the deposited data

How the results depend on the processing

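CDH1, CDH2, VIM, FN1 and SNAI1 kept their direction and their call under all 16 alternatives run, with log2 fold changes of 0.48 to 0.60, 0.58 to 0.73, 0.18 to 0.31, 0.30 to 0.42 and 0.54 to 0.76. All 9 genes kept their place in the order of levels with CPM per kilobase of annotated exon length, a choice made after the data were seen. They also did so over the length implied by the deposited FPKM. That version is no check of the order, because its lengths come from the FPKM values themselves. The ratio of CDH2 to CDH1 moved to 0.417 in the knockdown group and 0.376 in the control group over annotated exon length. ZEB1 changed sign with total-count scaling (0.050), log2(FPKM + 1) (0.040), log2(FPKM + 0.1) (0.076) and without knockdown replicate 1 (0.0067) or 3 (0.032), within a range of -0.12 to 0.032 over the libraries left out in turn. TWIST1 changed sign without knockdown replicate 1 (-0.027). For these the cause was not tested. Lower calls over all genes were 3759, but 2407 under total-count scaling, 1552 for log2(FPKM + 1) and 1554 for log2(FPKM + 0.1). Lower calls in the companion lists were 30, against 15 on either FPKM scale. The median of all genes was 0.10 on the log2(FPKM + 0.1) scale and 0.08 with total-count scaling. The replicate block left the calls at 5 higher and 0 lower. Replicate numbers were not treated as pairs in the main fit. The correlations of deviations between same-numbered libraries were 0.0677, 0.0368 and 0.146. Those between libraries of different numbers ran from -0.110 to 0.0457, and were thus mostly lower. Whether same-numbered libraries share a batch was not tested. SNAI2 ranged between 0.024 and 0.48. Low counts limit SNAI2, ZEB2 and TWIST1.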
